A study of Mus musculus with 30 samples.

Results

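The subject of these results is the average effect of losing ERRγ on gene expression in 5 organs of the newborn mouse. ERRγ, the product of Esrrg, is an orphan nuclear receptor that binds DNA without a known natural hormone. With its relatives ERRα and ERRβ and the coactivators PGC-1α and PGC-1β it turns on genes of mitochondrial energy production. Around birth, mammals move from placental glucose to milk fat and to short fasts, a change in which glucocorticoid hormones and low insulin take part. RNA from the liver, kidney, brain, stomach and salivary tissue was measured on Affymetrix MOE430A arrays, which hold sets of short probes against known mouse transcripts. All 30 arrays of the series were used, in 10 groups of 3: ERRγ null and wild-type mice for each of the 5 tissues, as the titles name them. All animals were neonatal or perinatal, had a mixed SV129/C57BL/6 background, were kept on standard chow and were of unknown sex, and no treatment is named for any group. The labels do not say how the null allele was made, how many animals were used or whether RNA was pooled. For each probe set, null minus wild type was taken in each tissue and the 5 differences were averaged with equal weight.

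Values are log2 MAS5 signals, where a step of 1 is a doubling. The number of arrays, 3 per group, limits the precision, and p-values measure the spread between these arrays, which may be partly technical. Array medians lay between 5.80 and 6.08. The tissue markers checked were above the other 24 arrays in every array of their own tissue, except the parietal cell pump genes Atp4a and Atp4b, which were low in null stomach. The Esrrg probe set was not called lower in any null tissue. It read 6.02, 6.15 and 6.10 in null and 6.08, 6.00 and 5.98 in wild-type kidney arrays, and 6.32, 6.02 and 6.18 in null and 5.92, 6.22 and 5.89 in wild-type brain arrays. It read 6.45, 6.19 and 6.76 in null and 6.64, 6.33 and 6.50 in wild-type liver arrays, and 6.65, 6.29 and 6.22 in null and 6.57, 6.33 and 6.34 in wild-type salivary arrays, and in all 4 tissues the groups overlapped. In stomach it was higher in the nulls, at 6.56, 6.39 and 6.49 in null and 6.01, 5.93 and 6.03 in wild-type stomach arrays, with no overlap and a difference of 0.49 (adjusted p = 0.0325). Its average difference was 0.13 ± 0.07 (adjusted p = 0.175), given here and below with its SE. Whether its probes lie inside the deletion is not stated in the labels, and so the probe set is no check of them. Xist, transcribed from the inactive X, was between 6.34 and 7.22 and the Y-linked Eif2s3y between 6.64 and 7.91 in the arrays numbered 1 of the null groups and 3 of the wild-type groups, in all 5 tissues. In the other 20 arrays Xist was between 10.68 and 11.38 and Eif2s3y between -3.06 and 1.54. Same-numbered arrays of a genotype may share an animal, which the labels do not say. Each average was therefore also tested on 6 means, in which the 5 same-numbered arrays of a genotype were averaged first and 3 null means were set against 3 wild-type means. The gap between 3' and 5' control probe sets, averaged over Gapdh and Actb, grows as RNA breaks down, and was 3.22 ± 0.34 in null stomach against 2.08 ± 0.43 in wild-type stomach (SD, n = 3 each, exact two-sided permutation p = 0.1, the smallest that 3 against 3 allows). In the other tissues its genotype difference lay between -0.19 and 0.05. In liver the Gapdh gap by itself was 3.91 to 4.16 in null and 4.25 to 4.81 in wild-type arrays, a difference of -0.45. The same permutation test gave p = 0.1 for it, and the Actb gap differed by 0.13 there. The part of the averaged gap in the stomach values was not tested by itself. A fit of all arrays with the Gapdh gap as a covariate called 3517 averages, against 3753 without it. The count of probe sets whose effect differs between tissues in that fit is given at the end.

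On average over the 5 organs, 22 of 32 glucocorticoid-responsive genes, 20 of 32 genes raised by starvation and 16 of 29 immediate early genes were higher in the nulls. On the same average 20 of 28 genes of folding in the endoplasmic reticulum, 13 of 20 genes of cholesterol synthesis, 37 of 46 of DNA replication and 39 of 52 of mitosis were lower. Of all tested probe sets 11.4% were higher and 11.1% lower. The lists and their members were chosen with earlier results of these data known, and some genes are in more than 1 list. The list counts are therefore a description, and they come mostly from stomach, liver and salivary tissue, though not to the same degree. Without stomach and salivary tissue 21 glucocorticoid-responsive, 20 starvation and 9 immediate early genes were higher. Lower were 8 endoplasmic reticulum, 7 cholesterol, 6 replication and 6 mitotic genes. That omission was chosen after seeing the data, and in it 624 of all tested probe sets were higher and 532 lower. Of all members of these 7 lists, 2 passed in brain by itself, where 0.138% of all probe sets did, and both were mitotic genes that were lower. In kidney, where 0.336% of all probe sets passed, 4 glucocorticoid-responsive genes and 1 endoplasmic reticulum gene were higher and 1 mitotic gene was lower. In liver, where 13% passed, the mitotic genes had 3 higher members and a median of 0.13. Of 16690 probe sets above the expression filter in at least 1 tissue, 3753 passed on average at an adjusted p under 0.05 (22.5%), with 1898 higher (11.4%) and 1855 lower (11.1%). With all array medians set equal, 1372 were higher and 2150 lower, so that 39.0% of the calls were higher, against 50.6% on the values as deposited. The median size of a called average was 0.337. Of the called probe sets, 1787 had the same sign in all 5 tissues (47.6%), against 16.1% of all tested probe sets. These were 996 higher (5.97%) and 791 lower (4.74%). The signs and the calls use the same values, so that share is a description. On the 6 means 1680 passed (10.1%), 763 higher (4.57%) and 917 lower (5.49%), and 1657 of them were also called over the 30 arrays.

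The organs did not contribute equally. Taken by themselves in the same fit, brain gave 23 calls (0.138%) and kidney 56 (0.336%), against 2807 in stomach (16.8%), 2318 in salivary tissue (13.9%) and 2164 in liver (13%). The median size of the difference was 0.297 in stomach, 0.26 in salivary tissue, 0.253 in liver, 0.167 in kidney and 0.16 in brain. Among the called averages the largest of the 5 differences fell in salivary tissue for 34.4%, in stomach for 29.6%, in liver for 28%, in kidney for 4.08% and in brain for 3.89%. The F test of whether the null effect differs between tissues called 2550 probe sets (15.3%), of which 1213 were also called on average. Within the joint fit 9 probe sets, all higher, passed in 4 tissues by themselves and 0 in all 5. The named ones stood for Cebpd, Klf9, Tsc22d3, Timp3 and Serinc1, a carrier of serine into membranes, whose other 3 probe sets averaged between -0.01 and 0.03.

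Called genes with all 5 differences above 0 were ranked by the smallest of the 5, and the first 12 were Cebpd, Plin5, Cry2, Pappa, Klf9, Per1, Hif3a, Defb4, Ccn2, Il1r2, Nr4a1 and Fos. Their averages ran from 0.70 for Nr4a1 to 2.17 for Cebpd. On the 6 means 10 of the 12 passed, and Pappa (adjusted p = 0.0826) and Il1r2 (0.0927) did not. They held transcription factors (Cebpd, Klf9, Hif3a, Nr4a1 and Fos), clock repressors (Cry2 and Per1) and genes of other roles. This ranking also takes up differences between low readings. Of these 12 genes and the 12 lower ones below, 13 reached the filter level, 5.24 to 5.39, in all 5 tissues, 5 in 2 to 4 and 6 in 1. The filter uses the mean of both genotypes, and for Cry2, Brix1 and Atp8a2 1 genotype lay under it in every tissue. With no filter all 24 passed, and with low values set to 5 all but Plin5 and Cfb.

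Cebpd encodes C/EBPδ, a transcription factor induced by glucocorticoids and in inflammation. It read 7.78, 5.30 and 5.93 in null and 5.16, 4.88 and 4.71 in wild-type brain arrays. It read 9.11, 8.60 and 9.0 in null and 6.38, 6.31 and 6.72 in wild-type kidney arrays, and 10.13, 9.48 and 10.35 in null and 7.82, 6.97 and 7.64 in wild-type stomach arrays. It read 9.95, 8.81 and 9.55 in null and 7.89, 7.60 and 7.37 in wild-type liver arrays, and 10.55, 9.22 and 10.23 in null and 7.16, 7.72 and 7.10 in wild-type salivary arrays. In each tissue all 3 null arrays were above all 3 wild-type arrays, and the null array numbered 2 was the lowest of the 3 null arrays. Its average difference was 2.17 ± 0.19 (adjusted p = 2.53e-08), with an adjusted p of 0.00424 on the 6 means, and the F test gave 0.383. Klf9, a Krüppel-like factor that is a direct target of the glucocorticoid receptor, read 9.87, 9.06 and 9.87 in null and 8.90, 8.85 and 8.83 in wild-type brain arrays. It read 11.21, 10.42 and 11.21 in null and 9.72, 9.60 and 9.46 in wild-type kidney arrays, and 11.89, 11.36 and 11.84 in null and 9.92, 9.82 and 9.54 in wild-type stomach arrays. It read 11.74, 11.61 and 11.94 in null and 11.32, 11.02 and 10.77 in wild-type liver arrays, and 11.95, 11.59 and 11.73 in null and 9.94, 9.77 and 9.94 in wild-type salivary arrays. In none of the tissues did its null and wild-type arrays overlap. The average was 1.33 ± 0.09 (adjusted p = 8.76e-10), and the difference was larger in stomach, at 1.94, than in liver, at 0.73 (F test adjusted p = 0.00424). Per1, a clock repressor that is also a direct glucocorticoid target, had its largest difference in liver, where it read 7.87, 6.43 and 7.30 in null and 3.94, 5.66 and 5.76 in wild-type liver arrays. Its groups were apart in all 5 tissues, and its average was 1.23 ± 0.16 (adjusted p = 4e-06).

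**Figure D1:**
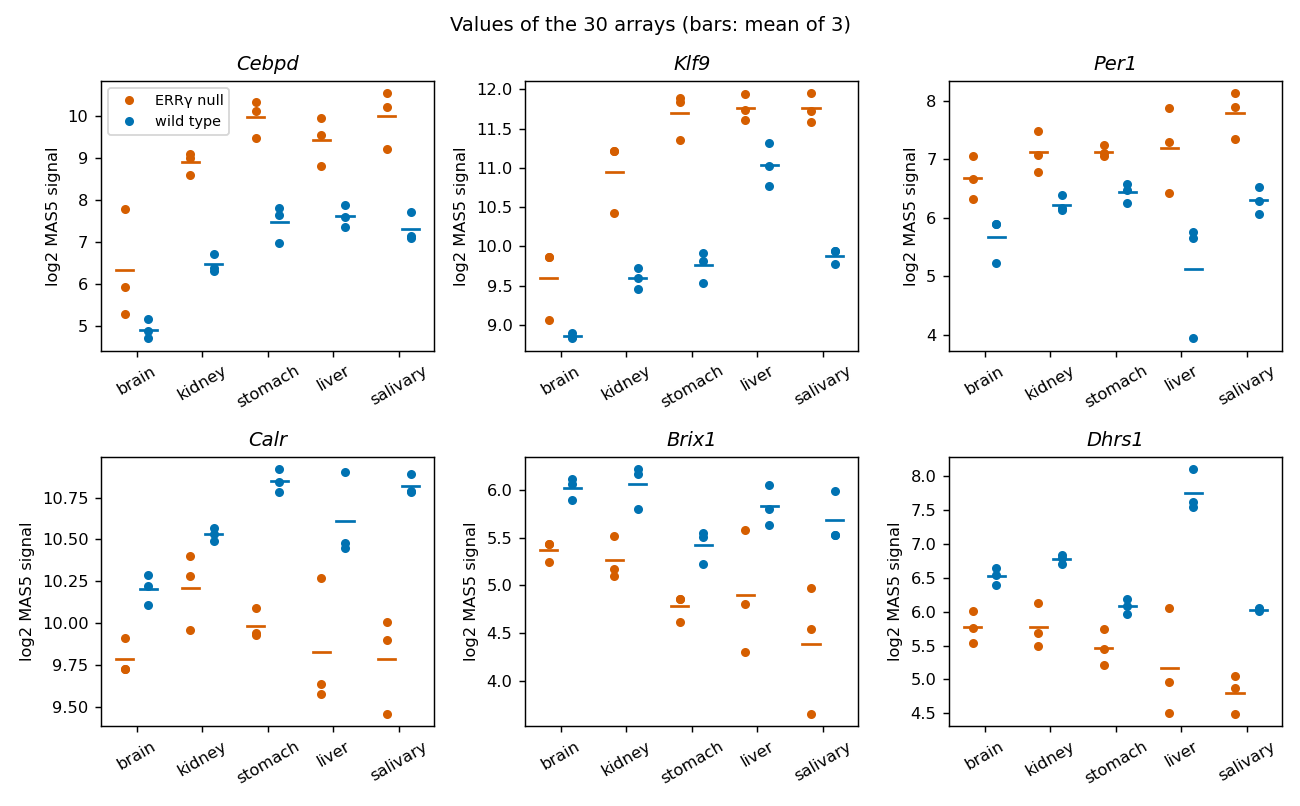
Log2 MAS5 signal of Cebpd, Klf9 and Per1, higher in null organs, and of Calr, Brix1 and Dhrs1, lower, in all 30 arrays. Points are single arrays, ERRγ null left of wild type in each tissue, and bars are means of 3; the null and wild-type points do not overlap in any of the 5 tissues for any of the 6 genes.

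Plin5, which coats lipid droplets in fat-burning cells, was above the filter level in 1 tissue, liver, where it read 8.16, 8.05 and 8.39 in null and 7.51, 7.12 and 6.36 in wild-type liver arrays. It read 4.17, 4.5 and 5.13 in null and 4.19, 3.77 and 2.87 in wild-type brain arrays, and 4.07, 4.48 and 4.52 in null and 3.38, 0.49 and 3.44 in wild-type kidney arrays. It read 4.34, 4.07 and 4.56 in null and 3.65, 3.55 and 3.47 in wild-type stomach arrays, and 4.94, 6.77 and 5.45 in null and 3.91, 3.68 and 7.17 in wild-type salivary arrays. The groups were apart in kidney, stomach and liver and overlapped in brain and salivary tissue, and 1 low wild-type array widened the kidney difference. The average was 1.14 ± 0.31 (adjusted p = 0.00915), but it was 0.25 (adjusted p = 0.306) with low values set to 5 and 0.69 (adjusted p = 0.0761) without wild-type salivary arrays 1 and 2. Cry2, a cryptochrome that represses the clock, was above the filter level in liver, where it read 7.27, 6.44 and 6.77 in null and 3.45, 5.17 and 3.74 in wild-type liver arrays. It read 6.62, 5.20 and 6.00 in null and 3.22, 4.39 and 4.01 in wild-type salivary arrays, again without overlap. It read 4.99, 5.73 and 5.62 in null and 4.23, 5.80 and 3.47 in wild-type brain arrays, 5.53, 2.73 and 2.93 in null and 2.25, 2.64 and 4.04 in wild-type kidney arrays, and 5.46, 4.12 and 4.74 in null and 3.35, 4.52 and 3.39 in wild-type stomach arrays. In these last 3 tissues the groups overlapped. In no tissue did the wild-type mean of Cry2 reach the filter level, so it passed the filter through the null arrays, where it is high. Its average was 1.5 ± 0.29 as deposited and 0.64 with low values set to 5, with an adjusted p of 0.000772 over all probe sets with no filter. Pappa, a protease that frees insulin-like growth factors from a binding protein, read 5.01, 4.98 and 5.30 in null and 4.30, 4.60 and 4.16 in wild-type brain arrays, 7.09, 5.87 and 6.39 in null and 5.76, 5.74 and 5.31 in wild-type kidney arrays, and 7.30, 5.92 and 6.73 in null and 5.85, 5.54 and 5.57 in wild-type stomach arrays. It read 5.44, 2.13 and 5.56 in null and 2.43, 2.30 and 4.55 in wild-type liver arrays, and 6.24, 5.10 and 5.76 in null and 4.63, 5.37 and 4.51 in wild-type salivary arrays. The groups were apart in brain, kidney and stomach and overlapped in liver and salivary tissue, and the average was 0.95 ± 0.28 (adjusted p = 0.0148), with an adjusted p of 0.0576 without stomach.

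The other genes of this set covered early response, matrix and innate immune roles. Hif3a, a member of the hypoxia factor family, averaged 1.24 ± 0.15 (adjusted p = 1.29e-06), and Fos, the immediate early partner of Jun, averaged 1.36 ± 0.24 (adjusted p = 0.000168). Ccn2, a secreted matrix protein, averaged 1.0 ± 0.15 (adjusted p = 2.38e-05), with differences from 0.65 in stomach to 1.30 in kidney. Nr4a1, an immediate early orphan receptor, had differences between 0.62 and 0.86 and an average of 0.70 ± 0.14 (adjusted p = 0.00073). Il1r2, the decoy receptor for interleukin-1, averaged 0.92 ± 0.25 (adjusted p = 0.008), with 1.93 in liver and at most 0.70 elsewhere, and did not pass without liver (0.0755). Defb4, a beta-defensin, averaged 1.47 ± 0.45 (adjusted p = 0.0202), was above the filter level in 1 tissue and did not pass without stomach (0.0758). With low values set to 5 its average was 0.28.

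In 32 probe sets the 3 null arrays were above the 3 wild-type arrays in each of the 5 tissues (0.192% of those tested), and in 22 they were below (0.132%). The higher ones stood for 25 named genes. Beside Cebpd, Klf9 and Per1 these held Sgk1, a kinase that promotes sodium retention (average 1.22), Errfi1, a brake on EGF receptor signalling (1.21), and Nfkbia, the inhibitor of NF-κB (1.11 and 0.84 by 2 probe sets). Mt2, a metallothionein, had differences between 0.57 and 0.77 and an average of 0.70. Pim3, a survival kinase (1.52), Timp3, an inhibitor of matrix proteases (0.80), Ugcg, which makes glucosylceramide (0.75), and Gpam, the first enzyme of glycerolipid synthesis (0.61), were also among them. The lower ones stood for 18 named genes. They included Calr by 3 probe sets (-0.78, -0.69 and -0.68), Skp2, which marks a cell-cycle inhibitor for degradation (-0.74), Cks2, a partner of cyclin-dependent kinases (-0.59), and Sec13, of the vesicle coat that leaves the endoplasmic reticulum (-0.55). Acat1, a mitochondrial thiolase (-0.50), Uqcc2, an assembly factor of complex III (-0.45), and the nucleolar Nop10 (-0.25, adjusted p = 0.0507 on the 6 means) were among them too.

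**Figure D2:**
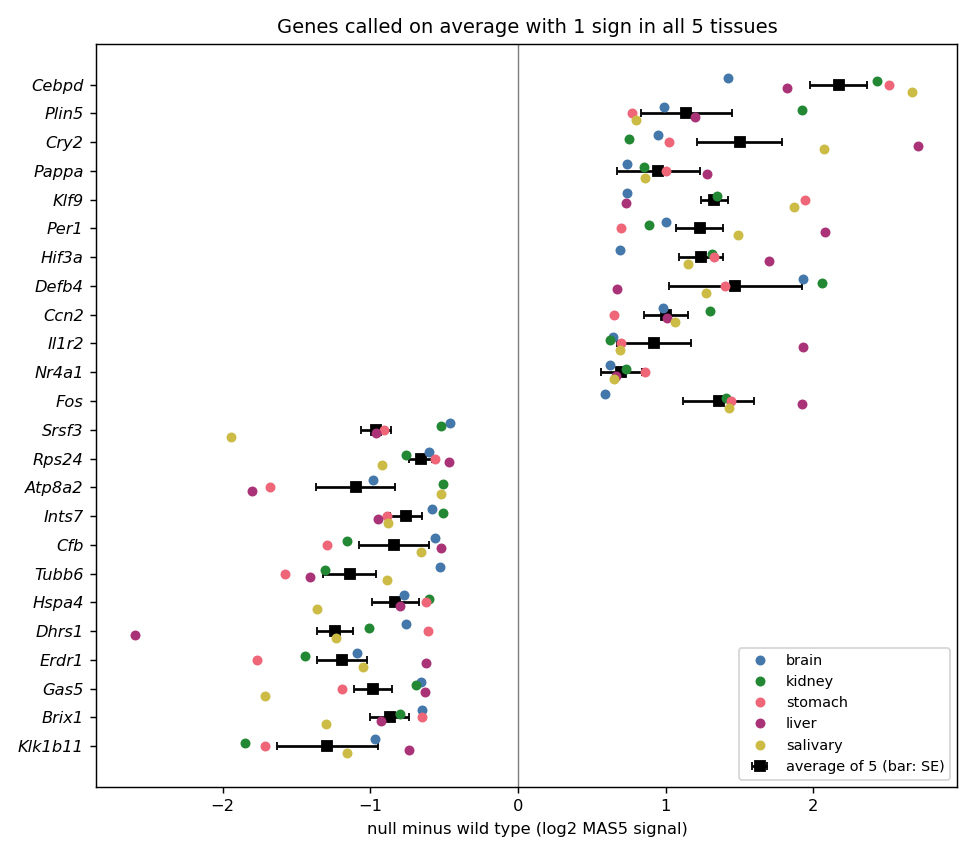
Log2 difference, null minus wild type, for the 12 higher and 12 lower genes with the largest weakest difference among those called on average with 1 sign. Coloured points are the 5 tissues and black squares the average with its SE; Cebpd lies between 1.42 and 2.67 and Klk1b11 between -1.85 and -0.74.

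Ranked in the same way among genes with all 5 differences below 0, the first 12 were Klk1b11, Brix1, Gas5, Erdr1, Dhrs1, Hspa4, Tubb6, Cfb, Atp8a2, Ints7, Rps24 and Srsf3. Klk1b11, a tissue kallikrein, was above the filter level in salivary tissue alone, where it read 5.92, 4.94 and 5.87 in null and 7.13, 6.62 and 6.47 in wild-type salivary arrays. It read 1.5, 3.99 and 0.15 in null and 2.92, 2.07 and 3.55 in wild-type brain arrays, and 0.17, 2.81 and 0.63 in null and 1.94, 3.49 and 3.72 in wild-type kidney arrays. It read 2.03, 1.45 and -0.01 in null and 3.11, 2.52 and 2.98 in wild-type stomach arrays, and 3.82, 3.03 and 4.11 in null and 4.61, 3.76 and 4.81 in wild-type liver arrays. The groups were apart in stomach and salivary tissue and overlapped in the others. Outside salivary tissue every reading was under the filter level, so those 4 differences are between signals that may not be above background. The average was -1.29 ± 0.34 as deposited and -0.23 (adjusted p = 0.0183) with low values set to 5, and kallikrein genes are alike enough that the probes may read several of them. Brix1, an assembly factor of the large ribosomal subunit, read 5.24, 5.43 and 5.43 in null and 6.11, 5.89 and 6.06 in wild-type brain arrays, and 5.10, 5.52 and 5.17 in null and 5.80, 6.17 and 6.22 in wild-type kidney arrays. It read 4.62, 4.86 and 4.86 in null and 5.51, 5.22 and 5.55 in wild-type stomach arrays, 4.80, 4.30 and 5.58 in null and 5.63, 5.80 and 6.05 in wild-type liver arrays, and 4.97, 3.65 and 4.54 in null and 5.53, 5.53 and 5.99 in wild-type salivary arrays. Its groups were apart in all 5 tissues, with the null arrays most spread in liver and salivary tissue, and its null mean was under the filter level in every tissue. The average was -0.87 ± 0.13 (adjusted p = 2.05e-05), and -0.64 with low values set to 5, with 0.00923 on the 6 means.

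Gas5, a non-coding RNA that hosts small nucleolar RNAs and can bind the glucocorticoid receptor, read 6.08, 6.08 and 6.76 in null and 7.11, 7.05 and 6.73 in wild-type brain arrays, and 6.16, 6.23 and 6.78 in null and 7.01, 7.12 and 7.11 in wild-type kidney arrays. It read 4.91, 5.88 and 6.04 in null and 6.99, 6.63 and 6.78 in wild-type stomach arrays, 5.77, 5.91 and 6.42 in null and 6.47, 6.75 and 6.78 in wild-type liver arrays, and 4.97, 6.05 and 6.2 in null and 7.39, 7.62 and 7.33 in wild-type salivary arrays. In brain 1 null array was above the lowest wild-type array, the other tissues had no overlap, and the null array numbered 1 was the lowest or tied for lowest in every tissue. The average was -0.98 ± 0.13 (adjusted p = 4.16e-06), and another probe set averaged -0.78 ± 0.12, while 2 others averaged 0.12 and did not pass. Erdr1, a secreted factor named for erythroid differentiation, read 8.35, 9.15 and 9.82 in null and 10.29, 9.95 and 10.36 in wild-type brain arrays, and 8.51, 9.75 and 9.68 in null and 10.87, 10.27 and 11.11 in wild-type kidney arrays. It read 7.80, 8.41 and 8.55 in null and 9.71, 9.82 and 10.53 in wild-type stomach arrays, 8.19, 8.75 and 9.07 in null and 9.03, 9.03 and 9.81 in wild-type liver arrays, and 7.63, 9.16 and 8.87 in null and 9.39, 9.62 and 9.81 in wild-type salivary arrays. In liver 1 null array was above 2 wild-type arrays, the other tissues had no overlap, and the null array numbered 1 was the lowest in each tissue. The average was -1.19 ± 0.17 (adjusted p = 1.55e-05).

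Dhrs1, a short-chain dehydrogenase, had its largest difference in liver, where it read 4.96, 6.05 and 4.51 in null and 8.11, 7.62 and 7.55 in wild-type liver arrays. Its groups were apart in all 5 tissues, the average was -1.24 ± 0.12 (adjusted p = 8.22e-08), and the F test gave 0.00322. Srsf3, a splicing factor, averaged -0.96 ± 0.10 (adjusted p = 1.83e-07), with -1.94 in salivary tissue. Hspa4, a heat shock protein, averaged -0.83 ± 0.16 (adjusted p = 0.000486), Tubb6, a β-tubulin, -1.14 ± 0.18 (adjusted p = 5.61e-05), and Ints7, a subunit of the Integrator complex, -0.76 ± 0.11 (adjusted p = 2.18e-05). Of the 2 other Ints7 probe sets 1 averaged in the opposite direction, as did 1 of the 5 others of Srsf3, and neither of these was called. Cfb, complement factor B, averaged -0.84 ± 0.24 (adjusted p = 0.0136) and did not pass on the 6 means (0.0548), with low values set to 5 (0.0755) or without stomach (0.0819). Atp8a2, a phospholipid flippase above the filter level in 1 tissue, averaged -1.10 ± 0.27 (adjusted p = 0.00438), and -0.35 with low values set to 5. Rps24, of the small ribosomal subunit, averaged -0.66 ± 0.08 (adjusted p = 2.34e-06) by this probe set, whereas all 4 other Rps24 probe sets averaged above 0, 1 of them called, so the gene has no settled direction.

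Promoters of genes with the same sign in every organ are shown so that their sequence can be read beside the values. They come from RefSeq on GRCm38.p6 and run from 250 bases before to 50 bases after the annotated start, 5′ to 3′ on the gene's strand. Plin5 (chr17:56117499-56117798, minus strand) and Cry2 (chr2:92434020-92434319, minus strand) come first among the higher genes of that ranking with a RefSeq window, and Klk1b11 (chr7:43995627-43995926, plus strand) and Brix1 (chr15:10485888-10486187, minus strand) first among the lower ones. Plin5, Cry2 and Klk1b11 each reached the filter level in 1 tissue, as given above. Klf9 (chr19:23140976-23141275, plus strand) and Hspa5 (chr2:34771840-34772139, plus strand), the main chaperone of the endoplasmic reticulum, were added after their values were seen. Capitals mark matches to the CCAAT box, written CCAAT or, on the other strand, ATTGG.
Plin5: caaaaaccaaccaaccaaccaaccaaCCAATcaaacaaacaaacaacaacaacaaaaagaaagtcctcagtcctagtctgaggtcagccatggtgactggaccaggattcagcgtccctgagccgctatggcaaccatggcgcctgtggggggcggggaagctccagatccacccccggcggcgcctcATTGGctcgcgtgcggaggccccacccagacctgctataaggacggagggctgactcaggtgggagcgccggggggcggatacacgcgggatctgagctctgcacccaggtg
Cry2: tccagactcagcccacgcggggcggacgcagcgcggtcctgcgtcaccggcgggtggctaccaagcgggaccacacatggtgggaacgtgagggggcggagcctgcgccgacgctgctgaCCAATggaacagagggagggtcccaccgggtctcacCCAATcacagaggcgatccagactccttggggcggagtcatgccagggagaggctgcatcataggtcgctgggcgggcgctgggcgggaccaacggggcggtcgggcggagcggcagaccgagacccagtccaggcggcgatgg
Klf9: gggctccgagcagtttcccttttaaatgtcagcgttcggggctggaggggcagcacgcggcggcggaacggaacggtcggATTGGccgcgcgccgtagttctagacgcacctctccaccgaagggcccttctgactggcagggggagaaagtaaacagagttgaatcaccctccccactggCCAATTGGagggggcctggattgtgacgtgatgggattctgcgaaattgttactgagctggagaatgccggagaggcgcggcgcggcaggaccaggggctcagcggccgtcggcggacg
Klk1b11: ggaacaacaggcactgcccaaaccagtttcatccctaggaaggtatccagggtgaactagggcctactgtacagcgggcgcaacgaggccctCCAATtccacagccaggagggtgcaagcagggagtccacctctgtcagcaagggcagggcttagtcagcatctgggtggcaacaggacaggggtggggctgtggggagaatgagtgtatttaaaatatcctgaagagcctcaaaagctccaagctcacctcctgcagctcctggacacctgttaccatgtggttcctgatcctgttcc
Brix1: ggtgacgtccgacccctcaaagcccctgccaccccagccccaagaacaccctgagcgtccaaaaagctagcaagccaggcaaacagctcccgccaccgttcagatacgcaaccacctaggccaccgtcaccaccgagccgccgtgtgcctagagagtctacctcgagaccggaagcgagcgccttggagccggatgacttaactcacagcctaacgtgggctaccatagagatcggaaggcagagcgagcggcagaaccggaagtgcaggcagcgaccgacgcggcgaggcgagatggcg
Hspa5: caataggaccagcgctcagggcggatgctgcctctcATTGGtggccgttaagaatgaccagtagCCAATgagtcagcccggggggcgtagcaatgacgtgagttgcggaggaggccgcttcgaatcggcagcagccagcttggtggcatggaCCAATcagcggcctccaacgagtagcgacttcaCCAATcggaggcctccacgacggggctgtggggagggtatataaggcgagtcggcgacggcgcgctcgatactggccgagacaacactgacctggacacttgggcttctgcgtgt

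Of the motifs searched on both strands, CCAAT alone matched in these windows, with 4 matches in Hspa5, 3 in Klf9, of which 2 overlap, 2 each in Plin5 and Cry2 and 1 in Klk1b11. CCAAT is in 37.4% of all 32851 windows. The element of estrogen-related receptors, TNAAGGTCA, is in 1.28% of all windows and in 0 of the 16 windows found for the 24 ranked genes. It was in 2 of 60 windows of oxidative phosphorylation (3.33%), 1 of 20 of the tricarboxylic acid cycle (5%) and 1 of 16 of the cholesterol list (6.25%). In fatty acid oxidation it was in 0 of 28 and in the mitochondrial ribosome in 0 of 62. The full palindromic glucocorticoid response element is in 0.00913% of all windows and in 0 of 28 of the glucocorticoid-responsive list described next. Elements this rare are missing from most sets of this size, so the 0 for the ranked genes and the 0 for this list say nothing of either receptor. The E-box of clock factors, CACGTG, is in 7.15% of all windows, in 8 of 28 of the starvation list (28.6%), 6 of 23 of the immediate early list (26.1%), 4 of 16 of the clock list (25%) and 5 of 23 of the growth factor and imprinted list (21.7%), and the C/EBP element TTGCGCAA is in 0.183% of all windows. CACGTG was in 14.3% of the glucocorticoid-responsive list and 7.69% of the p53 target list, which were also higher. It was in 12.5% of the DNA replication list and 4.55% of the mitosis list. Among the lists that were lower, CCAAT was in 20 of 24 windows of the endoplasmic reticulum list (83.3%), 15 of 16 of the cholesterol list (93.8%) and 32 of 44 of the mitosis list (72.7%). It was in 57.5% of the DNA replication list, 42.9% of the ubiquitin-proteasome list, 40.3% of the mitochondrial ribosome list and 40% of oxidative phosphorylation, which were also lower. Among lists that were higher it was in 68.8% of the clock list, 50% of the glucocorticoid-responsive list, 46.4% of the starvation list and 43.5% of the immediate early list. The E2F motif TTTGGCGC was in 6 of 40 windows of the DNA replication list (15%), against 0.514% of all windows, and TTTCCCGC in 5 of 40 (12.5%), against 1.07%. In the mitosis list each of these 2 motifs was in 1 of 44 windows (2.27%). A match says only that the letters are present, and no match only that they are not in these 300 bases.

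Gene lists were read by counting, with 1 probe set per gene, the brightest. Over all 10130 such tested genes 11.4% were higher and 10.9% lower on average, with a median of 0.03. The glucocorticoid-responsive list, of genes that the hormone's receptor is known to switch on in many tissues, had 22 of 32 tested members higher (68.8%) and 1 lower, with a median of 0.71. The median was lowest in brain, at 0.32, and was 0.61 in kidney, 0.75 in liver, 0.80 in stomach and 1.11 in salivary tissue. The 18 members with all 5 differences above 0 were all called higher. Tsc22d3, which encodes the anti-inflammatory leucine zipper GILZ, averaged 1.42 ± 0.14 (adjusted p = 1.89e-07), and Ddit4, an inhibitor of mTORC1, 1.60 ± 0.18 (adjusted p = 9.81e-07). Fkbp5, a co-chaperone that restrains the receptor, averaged 0.92 ± 0.15 (adjusted p = 5.33e-05) by 1 probe set and 0.37 ± 0.16 (adjusted p = 0.112) by another. Nr3c1, the receptor itself, averaged -0.01 and -0.10 by 2 probe sets, neither of which passed. The lower member was Cdkn1c, an imprinted cell-cycle inhibitor, at -0.51 ± 0.08 (adjusted p = 6.66e-05). Over the 6 means 21 members were higher and 1 lower, and the same counts held without stomach and salivary tissue.

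The array medians of this list, taken as each member's distance from the wild-type mean of its tissue, were above all wild-type arrays of the tissue in every null array. The null array numbered 2 had the lowest of the 3 null medians in all 5 tissues. It read 0.71 in salivary tissue, 0.52 in liver, 0.5 in stomach, 0.4 in kidney and 0.15 in brain. The other null arrays read 1.41 and 1.23 in salivary tissue, 0.83 and 0.9 in liver, 0.96 and 0.94 in stomach, 0.78 and 0.76 in kidney and 0.63 and 0.38 in brain. The list of genes raised by starvation had the same number lowest in all 5 tissues. That order was noticed in the data and carries no test.

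**Figure D3:**
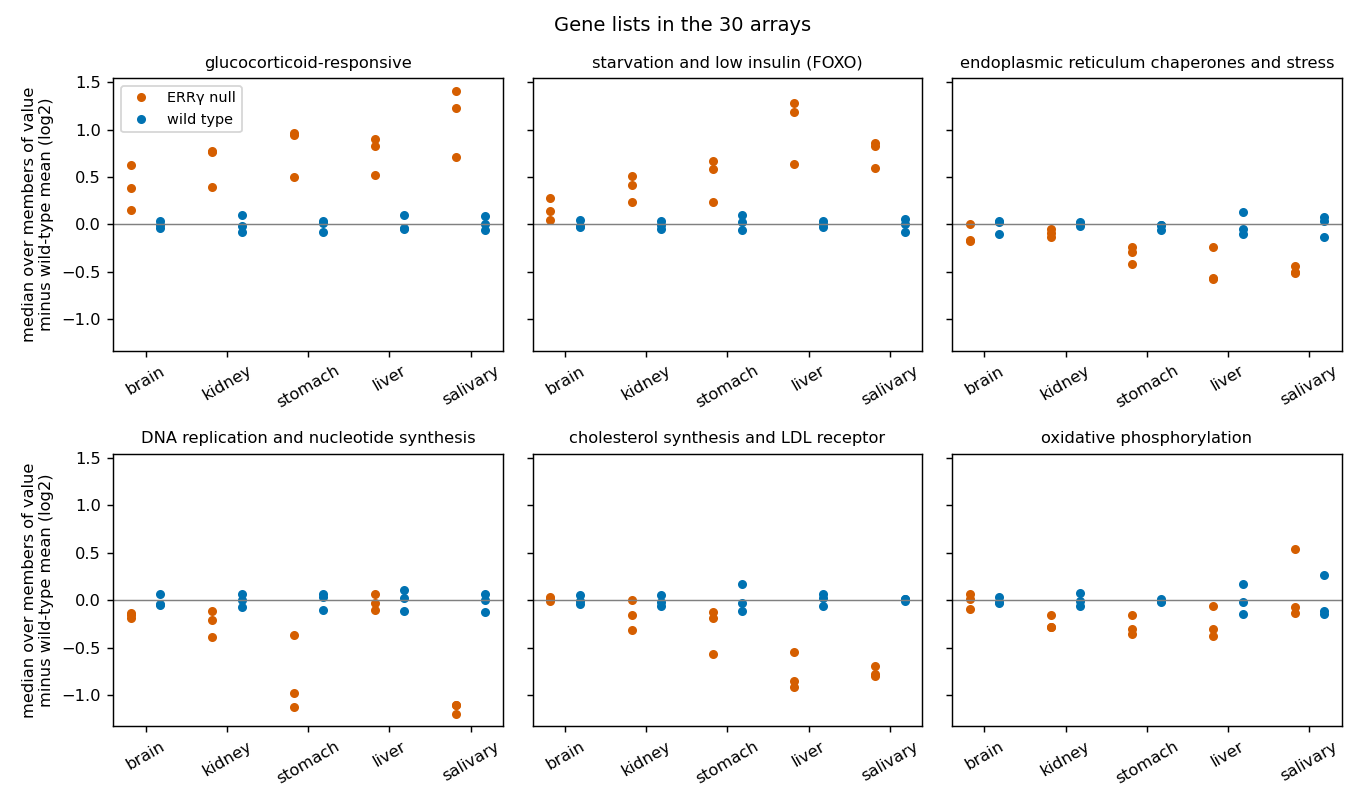
Median over the members of 6 gene lists of the value minus the wild-type mean of the tissue, on the log2 scale, in all 30 arrays. Points are arrays, ERRγ null left of wild type; the glucocorticoid-responsive medians of null arrays run from 0.15 in brain to 1.41 in salivary tissue.

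The starvation and low insulin list, which holds targets of the FOXO factors that insulin restrains, had 20 of 32 tested members higher (62.5%) and 1 lower, with a median of 0.57. The lower one, Klf10, a transcription factor induced by TGF-β, averaged -0.44 ± 0.13 (adjusted p = 0.0153). The list shares 5 members with the glucocorticoid list, and without stomach and salivary tissue 20 of its members were higher and 1 lower. Pdk4, the kinase that keeps pyruvate from oxidation in fasting, averaged 1.77 ± 0.21 (adjusted p = 1.29e-06), with differences of 3.94 in salivary tissue, 2.45 in stomach, 2.29 in liver and 0.15 in brain, while its kidney means were both 6.62. Lpin1, a phosphatidate phosphatase induced by fasting, averaged 1.46 ± 0.17 (adjusted p = 8.44e-07), Klf15, a factor of amino acid breakdown, 1.33 ± 0.24 (adjusted p = 0.000171), and Irs2, an adaptor of the insulin receptor, 1.07 ± 0.14 (adjusted p = 3.06e-06). Fbxo32, a ubiquitin ligase of muscle atrophy, averaged 1.28 ± 0.18 (adjusted p = 1.34e-05). The gluconeogenic Pck1 and G6pc averaged 0.75 ± 0.48 and 0.18 ± 0.23 and did not pass (adjusted p = 0.279 and 0.622). The summed level of 5 milk transcripts was 7.44 to 8.86 in null and 10.8 to 11.5 in wild-type stomach arrays, and all 4 tested milk genes were lower on average, with stomach differences between -3.99 and -2.61. The part of milk in the other results was not tested.

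The clock list had 8 of 17 tested members higher (47.1%) and 0 lower, with a median of 0.28. Beside Per1 and Cry2, the repressors Per2 and Per3 averaged 0.41 ± 0.11 (adjusted p = 0.0114) and 0.23 ± 0.07 (adjusted p = 0.0119), and neither passed on the 6 means (0.127 and 0.131). Cry1 averaged -0.03 ± 0.21 (adjusted p = 0.935), and the activator Arntl 0.08 ± 0.09 (adjusted p = 0.574). Usp2, a deubiquitinase under clock control, averaged 0.73 ± 0.10 (adjusted p = 1.55e-05), and Rora, which activates Arntl, 0.55 ± 0.09 (adjusted p = 0.00014). Immediate early genes, which respond within minutes to stimuli, had 16 of 29 members higher (55.2%), 2 lower, Klf10 and Ier5, and a median of 0.44. Maff, a small basic leucine zipper factor, had the largest average of all tested probe sets with 1 gene symbol, 2.24 ± 0.48 (adjusted p = 0.00132), but did not pass on the 6 means (0.0786), was above the filter level in 1 tissue and had groups apart in 2. Dusp1, a phosphatase of MAP kinases that the glucocorticoid list also holds, averaged 1.11 ± 0.18 (adjusted p = 6.9e-05). Tested on the 6 means, 10 members of the list were higher and 0 lower. Without stomach and salivary tissue 9 were higher, when 624 of all 16690 probe sets were higher. The p53 target list had 7 of 17 higher (41.2%) and 0 lower, with a median of 0.25. Its members Trp53inp1 and Cdkn1a, which halts the cell cycle, averaged 1.87 ± 0.19 (adjusted p = 1.41e-07) and 1.05 ± 0.15 (adjusted p = 1.72e-05), with brain differences of 0.03 and 0.14.

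Chaperones and folding enzymes of the endoplasmic reticulum were lower in 20 of 28 tested members (71.4%) and higher in 2, with a median of -0.29. All tissue medians were below 0, between -0.53 in salivary tissue and -0.10 in brain. Calr, a calcium-binding lectin chaperone, averaged -0.68 ± 0.07 (adjusted p = 1.59e-07). Pdia4, which forms disulfide bonds, averaged -0.70 ± 0.13 (adjusted p = 0.000198), and Creld2, a disulfide isomerase, -0.73 ± 0.13 (adjusted p = 0.000252). Hspa5 averaged -0.31 ± 0.06 (adjusted p = 0.000487) by its brightest probe set, which did not pass on the 6 means (0.0573), and -0.72 ± 0.08 (adjusted p = 7.86e-07) by another, whose 5 differences were all below 0. The higher members were Herpud1, of the degradation complex, at 0.67 ± 0.11 (adjusted p = 4.81e-05), and the stress sensor Atf6, at 0.26 ± 0.08 (adjusted p = 0.0226). The 6 means left 17 members lower and 1 higher. Without stomach and salivary tissue, 8 were lower and 1 higher, when 532 of all 16690 probe sets were lower, against 1855 with all 5 tissues.

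Genes of cholesterol synthesis were lower in 13 of 20 tested members (65%) and higher in 1, Insig2. This gene, which holds the pathway's activator SREBP back, averaged 0.44 ± 0.08 (adjusted p = 0.000209) by its brightest probe set, with 1.60 in liver. The median was -0.44, with -0.79 in liver, -0.72 in salivary tissue, -0.31 in stomach, -0.19 in kidney and -0.01 in brain. Msmo1, a sterol demethylase, averaged -1.28 ± 0.17 (adjusted p = 4.53e-06), Idi1, which isomerises the isoprenoid unit, -1.04 ± 0.10 (adjusted p = 1.14e-07), and Cyp51, another demethylase, -0.91 ± 0.11 (adjusted p = 1.49e-06). Their differences in brain were between -0.37 and -0.14, and the F test called all 3 (adjusted p = 0.022, 1.88e-05 and 0.00374). Without stomach and salivary tissue 7 members were lower and 1 higher, when 532 of all 16690 probe sets were lower.

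Genes of DNA replication were lower in 37 of 46 tested members (80.4%) and higher in 0, with a median of -0.54. Mitotic genes were lower in 39 of 52 (75%) and higher in 0, with a median of -0.41, and 8 of 11 genes of histones and chromatin of dividing cells were lower (72.7%). These averages were carried by some organs. The replication median was -1.17 in salivary tissue, -0.83 in stomach, -0.24 in kidney, -0.14 in brain and -0.05 in liver, and the mitosis median in liver was 0.13. Rrm2, a subunit of ribonucleotide reductase, averaged -0.95 ± 0.08 (adjusted p = 2.53e-08), with -2.71 in salivary tissue and 0.14 in liver (F test adjusted p = 5.56e-07). Melk, a mitotic kinase, averaged -1.06 ± 0.13 (adjusted p = 3.13e-06), with -2.07 in brain. Without stomach and salivary tissue 6 replication genes and 6 mitotic genes were lower, and without stomach alone 25 mitotic genes and without salivary tissue alone 23. In bulk tissue, fewer dividing cells and less RNA per cell cannot be told apart. The ubiquitin-proteasome and autophagy list was lower in 15 of 25 (60%), with Psma4, of the core particle, at -0.37 ± 0.05 (adjusted p = 6.44e-06). On the 6 means 6 of its members were lower, without stomach 8, and without stomach and salivary tissue 2.

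**Figure D4:**
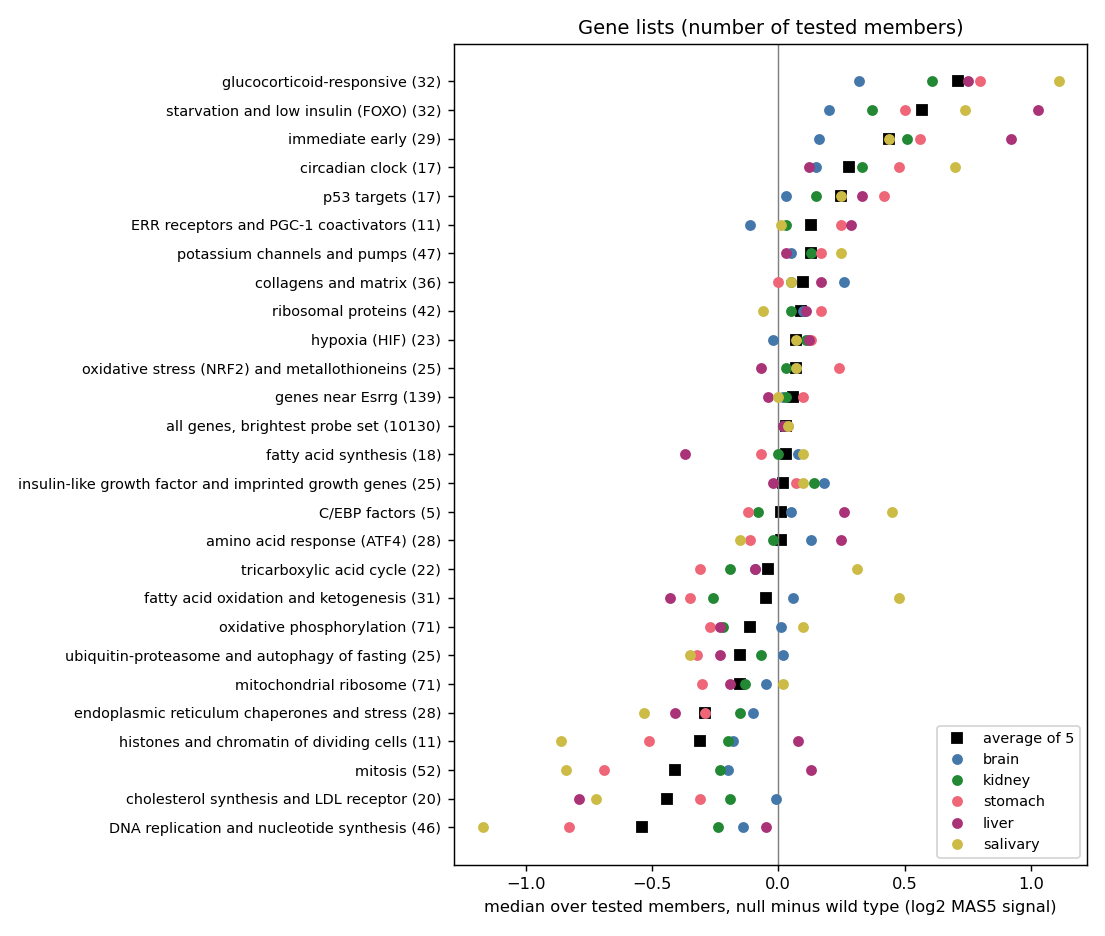
Median over the tested members of each gene list of the log2 difference, null minus wild type, with the number of tested members in brackets. Points are the 5 tissues and squares the average; the glucocorticoid-responsive median is above 0 in all 5 tissues and the DNA replication median lies between -1.17 and -0.05.

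Mitochondrial genes, many of which the ERR family is known to drive, had small averages. Of 71 tested genes of oxidative phosphorylation, 19 were lower (26.8%) and 1 higher, with a median of -0.11, and on the 6 means 4 were lower and 0 higher. The lower members numbered 12 with genotype and number as a random block, 12 without the mean-variance trend, 12 without wild-type stomach arrays 2 and 3 and 29 with array weights. Tissue medians were -0.27 in stomach, -0.23 in liver, -0.22 in kidney, 0.01 in brain and 0.1 in salivary tissue. Atp5g1, a ring subunit of ATP synthase, averaged -0.73 ± 0.09 (adjusted p = 4.39e-06), with 0.09 in brain, and Ndufb2, of complex I, -0.42 ± 0.08 (adjusted p = 0.000563). The count of lower members was 34 without salivary tissue, 9 without kidney, 7 without stomach and 7 without liver. It was 31 without the null salivary array 2 and 11 or 12 without any 1 of 9 other arrays: null brain 1, stomach 3, liver 1 and salivary 1 and 3, and wild-type kidney 1, stomach 3, liver 1 and salivary 3. The mitochondrial ribosome had 24 of 71 lower (33.8%) and 1 higher, with 9 lower on the 6 means, 12 without stomach and 8 without stomach and salivary tissue. In the tricarboxylic acid cycle 3 of 22 were lower (13.6%) and 0 higher, with Idh2 at -0.31 ± 0.06 (adjusted p = 0.000263).

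Fatty acid oxidation and ketogenesis had 5 of 31 lower (16.1%) and 2 higher (6.45%), with medians of 0.48 in salivary tissue and -0.43 in liver. Hadha, of the trifunctional β-oxidation enzyme, averaged -0.47 ± 0.12 (adjusted p = 0.00453), and Bdh1, the ketone body dehydrogenase, -0.73 ± 0.13 (adjusted p = 0.000138). The count of lower members was 14 without salivary tissue, 2 without kidney, 2 without stomach, 10 without both stomach and salivary tissue, 3 on the 6 means and 9 without the null salivary array 2. Ucp1, the uncoupling protein of brown fat, was 11.31, 12.75 and 11.02 in null and 5.99, 4.04 and 12.14 in wild-type salivary arrays. The summed level of 5 adipocyte and brown fat markers was 13.55 to 14.58 in null and 12.07 to 13.92 in wild-type salivary arrays, and that of 6 skeletal muscle markers was 8.54 to 9.47 in null and 6.43 to 7.04 in wild-type salivary arrays. Without wild-type salivary arrays 1 and 2, which had low Ucp1, 12 fatty acid oxidation genes and 30 genes of oxidative phosphorylation were lower.

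Among the receptors and coactivators, Ppargc1a, which encodes PGC-1α, averaged 1.09 ± 0.14 (adjusted p = 4.53e-06) by its brightest probe set and 0.80 ± 0.10 (adjusted p = 2.37e-06) by another, with liver differences of 2.74 and 2.25 and brain differences of 0.13 and -0.10. Ppargc1b averaged 0.36 ± 0.15 (adjusted p = 0.0864), Esrra, which encodes ERRα, 0.15 ± 0.09 (adjusted p = 0.204), and Esrrb, which encodes ERRβ, 0.01 ± 0.12 (adjusted p = 0.948). The corepressor Nrip1 averaged 0.24 ± 0.07 (adjusted p = 0.0115) and the mitochondrial DNA factor Tfam -0.20 ± 0.06 (adjusted p = 0.0151), and neither passed on the 6 means (0.0631 and 0.143). Of the 11 tested members of this list, 3 were higher (27.3%) and 1 lower.

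Other lists stood nearer to all genes or were split. Potassium channels and pumps, named in the series title, had 9 of 47 tested members higher (19.1%) and 2 lower, with a median of 0.13. The lower members were Atp4a and Atp4b, with stomach differences of -5.04 and -4.81. Kcne4, a channel subunit, averaged 1.07 ± 0.12 (adjusted p = 9.39e-07), with 3.68 in brain, and Kcna5, a voltage-gated channel, 0.84 ± 0.16 (adjusted p = 0.000304), with -0.34 in liver. The count of higher members was 4 without stomach and salivary tissue and 5 with the filter passed in all 5 tissues. The count of lower members was 0 without stomach, 0 without stomach and salivary tissue and 1 with the filter passed in all 5 tissues. It was 5 without kidney, 4 without liver, 5 without wild-type liver array 2, 4 without wild-type liver array 3 and 4 without null salivary array 3. Hypoxia genes had 7 of 23 higher (30.4%) and 2 lower, with Bnip3, of mitophagy, at 0.96 ± 0.11 (adjusted p = 6.02e-07). The oxidative stress and metallothionein list had 4 of 25 higher (16%) and 3 lower (12%), the higher ones including Mt1 at 0.88 ± 0.12 (adjusted p = 9.07e-06) and Gpx3, a secreted peroxidase, at 1.37 ± 0.23 (adjusted p = 9.16e-05).

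The amino acid response list had 6 of 28 higher and 6 lower, with Sesn2, a stress-induced inhibitor of mTORC1, at 0.69 ± 0.11 (adjusted p = 7.29e-05) and Aars, the alanyl-tRNA synthetase, at -0.51 ± 0.06 (adjusted p = 1.62e-06). Fatty acid synthesis had 4 of 18 higher and 5 lower, with Gpam, above, and Fasn, the synthase itself, at -0.56 ± 0.10 (adjusted p = 0.000246). Growth factor and imprinted genes had 5 of 25 higher and 4 lower, with Igfbp3, a binding protein of insulin-like growth factors, at 0.90 ± 0.16 (adjusted p = 0.000139) and the imprinted Peg3 at 0.49 ± 0.05 (adjusted p = 1.98e-07). Collagens and matrix had 5 of 36 higher and 0 lower, with the basement membrane chain Col4a1 at 0.22 ± 0.05 (adjusted p = 0.00193), and ribosomal proteins had 8 of 42 higher and 1 lower, Rpl12. Among 5 C/EBP genes, Cebpd and Cebpb, at 0.84 ± 0.21 (adjusted p = 0.0054), were higher, and Cebpb did not pass on the 6 means (0.0516).

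The largest averages were often those of a few organs. Of the genes below, Plk3, Klk1 and Sema3b reached the filter level in 1 tissue, Gadd45b in 2, Cdca7 in 3 and Gadd45g in 4. Their differences in the other tissues involve low readings, where log2 differences can be inflated. Plk3, a stress kinase, averaged 1.79 ± 0.28 (adjusted p = 4.32e-05), with 5.0 in liver, 2.97 in kidney, 1.32 in stomach, -0.16 in brain and -0.20 in salivary tissue. Gadd45b, of the stress-induced GADD45 family, averaged 1.53 ± 0.24 (adjusted p = 5.61e-05), with 4.66 in liver and at most 1.40 elsewhere, and its relative Gadd45g 1.43 ± 0.27 (adjusted p = 0.000362), with 4.0 in salivary tissue. Klk1, tissue kallikrein, averaged -1.81 ± 0.27 (adjusted p = 2.94e-05), with -5.68 in kidney, -3.72 in salivary tissue and 1.29 in liver. Sema3b, a secreted guidance factor, averaged -1.41 ± 0.23 (adjusted p = 6.38e-05), with -3.63 in stomach and -3.07 in salivary tissue. Cdca7, a cell-cycle gene, had all 5 differences below 0 and averaged -1.26 ± 0.13 (adjusted p = 1.59e-07), with -3.14 in salivary tissue. Got1, the cytosolic aspartate aminotransferase, differed by 3.43 in liver and -1.12 in stomach, and its average of 0.28 ± 0.11 did not pass (adjusted p = 0.0679).

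Genes within 20 Mb of Esrrg were counted as well. Of 139 tested genes 15 were higher (10.8%) and 19 lower (13.7%), against 11.4% and 10.9% of all genes, with a median of 0.06. On the 6 means 7 were higher and 8 lower, without salivary tissue 12 were lower, and without stomach and salivary tissue 8 were higher and 8 lower. Ints7 had differences between -0.95 and -0.51 by the probe set named above, while 1 of its 2 others averaged above 0 and was not called. G0s2, an inhibitor of fat breakdown, averaged -1.0 ± 0.23 (adjusted p = 0.00284), with -3.02 in liver.

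Markers of other cell types were read in the same fit. Of 5 erythroid, 7 hepatocyte, 4 endothelial and 3 exocrine pancreas markers tested, 0, 0, 1 and 0 were higher and 0, 0, 0 and 1 lower on average. The endothelial one was Cdh5, at 0.35 ± 0.08 (adjusted p = 0.00217), and the pancreatic one Clps, at -0.37 ± 0.13 (adjusted p = 0.0386). Clps reached the filter level in 1 tissue, with -1.84 in stomach and 0.79 in kidney, and did not pass on the 6 means (0.137). C1qb was the 1 of 7 macrophage and neutrophil markers that was higher, at 0.41 ± 0.11 (adjusted p = 0.0103), and did not pass on the 6 means (0.0631). Fabp4 was the 1 of 5 adipocyte markers, at 0.85 ± 0.29 (adjusted p = 0.0372), and Acta1 the 1 of 2 tested muscle markers, at 1.37 ± 0.42 (adjusted p = 0.0191), with 5.43 in salivary tissue. The summed levels of 8 marker lists, milk included, were also set side by side in each tissue. In 9 of 40 cases the null and wild-type arrays did not overlap, 5 higher and 4 lower. Full separation of 3 against 3 arrays has an exact two-sided permutation p of 0.1. Some of 40 cases would therefore be apart with no genotype effect, and the share of all probe sets apart in a single tissue was not counted. All 4 lower ones were in stomach. Beside milk they were skeletal muscle, at 7.21 to 7.61 in null and 8.36 to 8.63 in wild-type stomach arrays, exocrine pancreas, at 9.38 to 9.59 in null and 10.82 to 11.11 in wild-type, and adipocyte and brown fat, with medians of 10.59 in null and 10.76 in wild-type arrays. In liver the erythroid level was 12.36 to 12.52 in null and 11.94 to 12.17 in wild-type arrays, and the endothelial level 9.67 to 9.83 in null and 9.12 to 9.45 in wild-type arrays. The erythroid level in kidney was 8.07 to 8.4 in null and 7.94 to 8.02 in wild-type arrays, and the macrophage and neutrophil level in salivary tissue 9.63 to 9.93 in null and 9.33 to 9.54 in wild-type arrays. Skeletal muscle in salivary tissue, given above, was the fifth higher one. The part of these levels in the averages was not tested. Alb, the albumin gene of hepatocytes, was 6.81, 6.19 and 7.06 in null and 5.93, 10.25 and 11.90 in wild-type stomach arrays. With wild-type stomach arrays 2 and 3 left out, 23 members of the glucocorticoid-responsive list were higher, and with wild-type salivary arrays 1 and 2 left out, 21.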

How the data were processed

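RNA from the 30 samples was hybridised to 1 Affymetrix MOE430A array each, per the labels. The authors deposited log2 MAS5 signals in the series matrix, and MAS5 is named, with no version, in the submitters' processing notes. The linear values of each array had a mean of 149.988 to 150.008 after trimming 2% at each end, so the arrays had been scaled to 1 level. Of 22690 probe sets 64 controls were set aside, and 20380 of the others have 1 gene symbol, 691 several and 1555 none in the platform annotation. Probe sets were tested where the mean of a tissue reached that tissue's 40th percentile, 5.24 to 5.39, in at least 1 tissue. The 10 groups were fitted with limma 3.58.1 in R 4.3.3 (lmFit, eBayes with trend). Tested were the mean of the 5 tissue differences, each difference, and by an F test the differences between tissues, each with Benjamini-Hochberg adjustment over 16690 probe sets and a threshold of 0.05. The scripts were tested on simulated data. Tables were handled in Python 3.11.15 with pandas 2.3.3, scipy 1.17.1 and matplotlib 3.10.9.

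Named were, with 1 probe set per gene, the 12 largest called rises and falls, the 12 rises and falls with the largest weakest difference among called genes of 1 sign, up to 4 called members of each of 34 gene lists, the ERR and PGC-1 genes and the 8 genes of smallest F test p. Other genes were named for their role after their values were seen, as were the per-array values of Klf9, Per1 and Dhrs1. The members and lists were chosen with earlier results of these data known. Alternatives covered the scale of low values, the filter, normalization, the mean-variance trend, array weights, covariates, replicate blocks, the 6 means, the threshold, and leaving out each array and each tissue.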

Additional observations from a re-analysis of the deposited data

Results flagged for a closer look

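The null effect differed between tissues, by the F test over the 5 differences, in 24 of the named genes, and the adjusted p of that test is given for each. Among genes with large rises it was 0.000876 for Trp53inp1, 0.000588 for Plk3, 0.000518 for Pdk4, 0.0037 for Ddit4, 0.0014 for Gadd45b, 0.000173 for Pim3, 0.0082 for Lpin1 and 0.00492 for Gadd45g. Among genes with large falls it was 2.15e-05 for Klk1, 0.00048 for Sema3b, 0.022 for Msmo1, 0.000189 for Cdca7 and 0.0021 for Bcl7c. Klf9 (0.00424), Dhrs1 (0.00322) and Srsf3 (0.00751) are genes with 1 sign in all 5 tissues whose size still differed.

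The smallest values belonged to Atp4a (6.79e-13), Got1 (2.56e-08), Fmo1 (1.96e-07), Gucd1 (2.04e-07), Csrp2 (4.27e-07), Ceacam1 (5.53e-07), Rrm2 (5.56e-07) and Kcne4 (2.46e-06). Fmo1, a flavin monooxygenase, differed by -1.53 in liver and 0.85 in salivary tissue. Csrp2, a muscle LIM protein, differed by -1.11 in stomach and 0.45 in salivary tissue. Ceacam1, a cell adhesion molecule, differed by 5.02 in stomach and -0.85 in liver, and Gucd1 by 1.86 in salivary tissue and by at most 0.22 in size elsewhere.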

How the results depend on the processing

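Leaving out each array in turn gave 3283 to 4239 called averages, 1647 to 2201 higher and 1636 to 2038 lower, 1548 to 1955 with 1 sign, 849 to 1117 of these higher and 699 to 857 lower, and 1931 to 3110 calls of the F test. The 24 genes ranked by their weakest difference were called in each of these fits. Of them 22 were called with low values set to 5 (all but Plin5 and Cfb), 21 on the 6 means, 21 without stomach and 23 without liver. That floor ended the calls of 8 of 136 named probe sets, the others being those of Slc10a1, Ceacam1, Thrsp, Gsta4, Fbn2 and Acta1. The 6 means gave 1680 calls, 763 higher and 917 lower. At an adjusted p under 0.01 there were 2174, 1028 higher and 1146 lower, with 654 of 1 sign higher. Without brain 1207 of 1 sign over the remaining tissues were lower, a rule easier to meet than 1 sign in all 5. The following omissions were chosen after seeing the data. Without stomach and salivary tissue 1156 were called, 624 higher and 532 lower, with 889 of 1 sign over the remaining tissues, 509 higher and 380 lower. Without wild-type stomach arrays 2 and 3 and salivary arrays 1 and 2, 2409 were called, 1183 higher and 1226 lower. Each of these 2 omissions kept 18 of the 24 ranked genes. The F test called 1627 with the Gapdh difference as a covariate, 1138 without stomach, 1349 without wild-type stomach arrays 2 and 3, 519 without stomach and salivary tissue and 759 without the 4 arrays. Fits of 1 tissue alone called 0 probe sets in brain, where 1598 had an unadjusted p under 0.05, 747 in liver and 994 in salivary tissue. They called 3042 in stomach and 60 in kidney, against 2807 and 56 in the joint fit. All of these fits hold fewer arrays, and the causes of the changes were not tested.

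With the replicate number as a fixed block 3836 averages were called, and with genotype and number as a random block 3261. Deviations of same-numbered arrays of a genotype correlated at a mean of 0.04 in null and 0.02 in wild type, and across genotypes at 0. All of these means are near 0, so they cannot tell whether the numbers pair null with wild-type arrays. The sign turned without stomach in Csrp2 (0.19), Ceacam1 (-0.22) and Wap (0.18), without liver in Got1 (-0.51), Fmo1 (0.23) and Gsta4 (0.05), and without salivary tissue in Gucd1 (-0.14). It turned without stomach and salivary tissue in Gucd1 (-0.13), Ceacam1 (-0.19), Clps (0.22), Csn2 (0.07) and Wap (0.20). The median of all averages was 0.03 as deposited, -0.01 with equal array medians and 0 after quantile normalization.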
